A study of Mus musculus with 336 samples.

Results

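Expression of 9 liver genes of glucose output and glucose use was followed in mouse liver, in slice culture and in a shorter time course: Pcx, Pck1, Fbp1, G6pc, Slc37a4, Slc2a2, Ppargc1a, Pklr and Gys2. They were chosen by name for their place in hepatic glucose handling, and all 9 were found among the 47632 genes of the liver slice table and the 47631 genes of a shorter liver time course. Over the 3 days of slice culture, G6pc mRNA was higher and Pklr mRNA was lower without Bmal1. The ratio of G6pc to Pklr was higher in Bmal1-/- slices at 24 of 24 time points. This pair was chosen with the levels known, so the ratio restates these differences and carries no test. The G6pc difference fell under the size limit for a call when scaled to hepatocyte markers, or without the libraries that correlate least with the rest. The Pklr difference fell under that limit with median-of-ratios scaling. In the short course Pck1, Gys2 and Slc2a2 were lower without Bmal1. Over its 24 h, 6 of the 9 genes passed the test over time in WT and 8 in Bmal1-/-, where 64.4% and 72.2% of all genes passed, and hepatocyte markers fell over the same time. None of the members tested passed the test for a 24 h rhythm in the slices.

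The liver releases glucose in the fasted state by breaking down glycogen and by building glucose from lactate, amino acids and glycerol. Pyruvate carboxylase, phosphoenolpyruvate carboxykinase, fructose-1,6-bisphosphatase and glucose-6-phosphatase carry out the steps of gluconeogenesis that differ from glycolysis, while pyruvate kinase drives the last step of glycolysis and glycogen synthase stores glucose in the fed state. Glucagon, glucocorticoids and insulin control these genes in the intact animal, and the circadian clock, of which BMAL1 (gene Arntl) is a transcription factor, times the switch between feeding and fasting programmes.

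The study measured polyadenylated RNA by sequencing in C57BL/6 mouse liver, from adult animals in the case of the slices, of wild-type (WT) mice and of mice that lack Bmal1 (Bmal1-/-). By the protocol, slices of both genotypes received 100 nM dexamethasone, a synthetic glucocorticoid, for 15 min, were washed, and then stayed in constant darkness in HEPES-buffered medium that held glucose and serum. Liver slices were harvested from 48 h after dexamethasone every 3 h for 3 days, at 24 time points labelled CT00 to CT69. The deposited slice table holds 1 value per gene, genotype and time point, so time points stand in for replicates. The labels list 3 runs for each of these values, while the design text gives 3 cultures per genotype and time point, and neither says whether a value pools 3 slices. The short course comprised 3 replicates of each genotype at T00, T06, T12 and T24. Its labels call the tissue mouse liver and give neither an age nor the time from dexamethasone to T00. They carry the slice protocol, with 100 nM dexamethasone for 15 min, in both genotypes. They do not say of these samples whether the tissue was sliced and cultured in that way. The labels join a replicate number to a genotype at all 4 times, so the 12 samples of a genotype may come from fewer animals, and p-values measure only the spread between these samples.

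Values are FPKM (fragments scaled by transcript length and by the number of mapped fragments), which the authors deposited with no read counts, so the depth behind each value is unknown. All FPKM of a library summed to between 766546 and 2121560 in the slices and between 479770 and 1013680 in the short course. Gene-level Arntl does not show whether an exon is missing and checks no label: its median in the slices was 4.32 FPKM in WT and 4.07 FPKM in Bmal1-/-. No hepatocyte marker was absent throughout, and the 12 markers together reached a median of 12369 FPKM in WT and 17232 FPKM in Bmal1-/- slices, with Alb listed at 0 in 1 WT slice library (CT27). In the short course Alb was listed at 0 in 6 libraries, among them all 3 WT libraries at T00, beside abundant other markers, so a 0 there is no measure of the gene. The slice library Bmal1-/- CT09 had a hepatocyte marker sum of 135190 FPKM and holds the highest value of 7 of the 9 members in its genotype. Bmal1-/- CT27 and CT42 carried mRNA of adipocyte genes, with sums over 5 markers of 1072 and 202 FPKM where no other slice library exceeded 20.9. In the short course, Bmal1-/- replicate 2 at T12 and T24 was the lowest library of its group for all 9 members.

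RefSeq promoter windows, the 250 bases before each transcript start on GRCm38.p6, were matched for 8 of the 9 members (not Gys2), in 12 windows. Windows are printed for G6pc and Pklr, which set the genotypes apart in slices, and for Pck1, which did so in the short course. The window of the upstream Pcx start, the only member window read that held an E-box, is printed as well. They read 5' to 3' in the direction of transcription, with motif matches in capitals. The Pck1 window is chr2:173152823-173153072 on the plus strand, that of G6pc chr11:101367466-101367715 on the plus strand, that of Pcx chr19:4510222-4510471 on the plus strand, and that of the downstream Pklr start, the one used in liver, chr3:89136373-89136622 on the plus strand.
Pck1: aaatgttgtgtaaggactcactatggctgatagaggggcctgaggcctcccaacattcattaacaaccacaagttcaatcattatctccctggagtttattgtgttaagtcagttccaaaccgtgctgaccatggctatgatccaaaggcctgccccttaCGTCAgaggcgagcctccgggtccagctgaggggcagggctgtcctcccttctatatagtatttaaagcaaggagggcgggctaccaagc
G6pc: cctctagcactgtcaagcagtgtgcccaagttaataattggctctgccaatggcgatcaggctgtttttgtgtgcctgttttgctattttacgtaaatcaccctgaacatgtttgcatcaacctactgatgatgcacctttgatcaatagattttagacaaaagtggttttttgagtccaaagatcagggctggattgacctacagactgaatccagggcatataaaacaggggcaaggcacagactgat
Pcx: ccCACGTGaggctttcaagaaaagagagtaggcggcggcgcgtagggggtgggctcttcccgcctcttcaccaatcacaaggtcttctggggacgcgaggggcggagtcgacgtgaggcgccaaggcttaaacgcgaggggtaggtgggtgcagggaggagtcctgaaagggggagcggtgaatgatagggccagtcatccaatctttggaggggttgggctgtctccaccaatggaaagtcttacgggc
Pklr: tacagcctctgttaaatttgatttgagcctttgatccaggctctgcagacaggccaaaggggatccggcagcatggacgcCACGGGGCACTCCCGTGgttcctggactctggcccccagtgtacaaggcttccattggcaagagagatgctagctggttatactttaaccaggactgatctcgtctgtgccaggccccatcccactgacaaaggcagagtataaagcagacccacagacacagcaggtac
In all, 6 motifs were searched on both strands. The E-box CACGTG, to which BMAL1 binds with CLOCK, was present in 6.02% of all 32851 RefSeq promoter windows of this length. Among the member windows read, it was present only in that of the upstream Pcx start, 248 bases before the start. The window of the downstream Pcx start held none. The half-site TGACG of the cAMP response element was present in 17.8% of all windows and in Pck1, Ppargc1a and Slc37a4, and the Pck1 match starts 90 bases before the start. The full element TGACGTCA, which contains that half-site on both strands, was present in 1.55% of all windows, the glucocorticoid receptor half-site TGTTCT in 16.1% and the forkhead core TGTTTAC in 3.17%, and no member window held any of these 3. A palindromic carbohydrate response element (CACGNG, a spacer of 5 bases and CNCGTG), the kind of sequence bound by the glucose-sensing factor encoded by Mlxipl, was present in 13 of the 32851 windows (0.0396%) and, among the members, in Pklr, 170 bases before the start. This motif was added after the Pklr window had been read. A match describes letters and not a bound site.

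**Figure D1:**
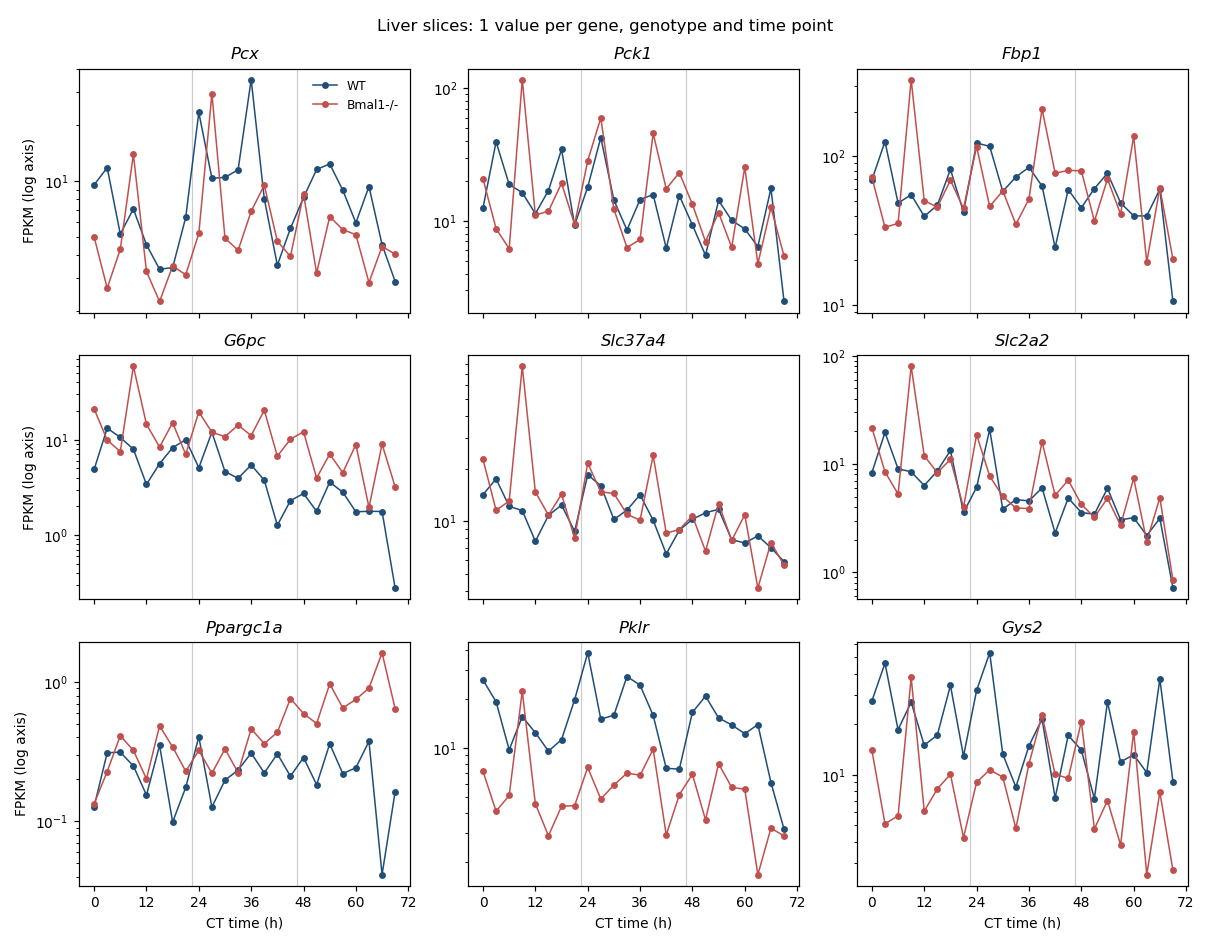
FPKM (log axis) of the 9 members in liver slices against CT time in hours, with 1 point per genotype and time point and grey lines between days. Bmal1-/- values of G6pc lie above WT at 20 of 24 times and those of Pklr below WT at 23 of 24 times, and the Bmal1-/- value at CT09 is a peak in most panels. Of all genes, 2.54% lay above WT at 20 or more times and 54.2% below WT at 19 or more. The share below WT is for a looser limit than the Pklr count.

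G6pc encodes the catalytic subunit of glucose-6-phosphatase, the enzyme that frees glucose for export (ENSMUSG00000078650, GRCm38 chromosome 11, 101367561 to 101377903). In WT slices its level was 0.276 FPKM at the lowest (CT69), 3.85 at the median and 13.3 at the highest (CT03). In Bmal1-/- slices the lowest value was 1.94 FPKM (CT63), the median 10.0 and the highest 59.2 (CT09). Bmal1-/- exceeded WT at 20 of the 24 times, a pattern that 2.54% of the 14566 genes tested met, and the 2 ranges overlapped. On day 1 the medians were 8.11 FPKM in WT and 12.2 in Bmal1-/-, on day 2 they were 4.28 and 11.5, and on day 3 they were 1.77 and 5.79. On day 3 all 8 Bmal1-/- values were above the WT value of the same hour. On the log2(FPKM + 1) scale, on which all differences here are given, the G6pc level was 1.13 ± 0.18 (SE, 24 time points a genotype) higher in Bmal1-/- with a limma adjusted p of 7.53e-07, and 1.18% of all genes were called higher by the same rule (an adjusted p under 0.05 together with a size limit of 1). The difference was 0.96 without the 6 libraries that correlate least with the rest, which is under the size limit.

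The other genes of glucose output did not pass the test of genotype in the slices. Pck1, which makes phosphoenolpyruvate from oxaloacetate, had a median of 14.3 FPKM in WT (range 2.47 to 42.5) and 12.1 in Bmal1-/- (4.75 to 116), and its difference was 0.13 ± 0.27 (SE; limma adjusted p = 0.683). Fbp1, the fructose-1,6-bisphosphatase of liver, was the member of highest level in slices, with medians of 59.0 FPKM in WT and 55.1 in Bmal1-/-. Pck1 and Fbp1 were each higher in Bmal1-/- at 12 of 24 times. Slc37a4, which carries glucose 6-phosphate to the phosphatase inside the endoplasmic reticulum, had medians of 10.5 FPKM in WT and 10.9 in Bmal1-/-. Slc2a2, the GLUT2 glucose transporter of the cell surface, had medians of 4.77 and 5.21 FPKM in the same order. Pcx, the mitochondrial carboxylase that feeds the pathway, was the only output gene with a lower estimate in Bmal1-/-: its median was 8.11 FPKM in WT (2.89 to 35.1) and 4.61 in Bmal1-/- (2.26 to 29.6). The highest Bmal1-/- value came from CT27, a library with adipocyte mRNA. The Pcx difference of -0.53 ± 0.20 (SE) had a limma adjusted p of 0.0189 and was under the size limit of 1 on the deposited scale.

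The ratio of G6pc to Slc37a4, the 2 parts of 1 phosphatase system, was also read within libraries. Its median was 0.351 in WT and 0.838 in Bmal1-/- slices, and it was higher in Bmal1-/- at 22 of 24 times. On day 3 all 8 Bmal1-/- ratios, from 0.469 to 1.19, lay above all 8 WT ratios, from 0.0470 to 0.358. The pair was chosen with the levels known and uses the same G6pc values, so the ratio restates the G6pc difference and carries no test.

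Ppargc1a, the coactivator PGC-1α that induces gluconeogenic genes in fasting, was near the detection limit in slices and did not reach the mean of 1 FPKM needed to enter the tests. It ranged from 0.0413 to 0.404 FPKM in WT (median 0.228) and from 0.134 to 1.62 FPKM in Bmal1-/- (median 0.424). The 2 genotypes came apart late: the day 1 medians were 0.212 and 0.276 FPKM, while on day 3 all 8 Bmal1-/- values, from 0.503 to 1.62, lay above all 8 WT values, from 0.0413 to 0.375. Such a separation on day 3 was met by 0.39% of the 21282 genes whose mean reached 0.1 FPKM. With no filter on low values, the Ppargc1a difference between genotypes was 0.26 ± 0.04 (SE; limma adjusted p = 3.31e-06). In that fit the change from day 1 to day 3 was 0.48 ± 0.07 in Bmal1-/- (limma adjusted p = 0.000172) and 0.01 ± 0.07 in WT, but the difference of these changes did not pass (0.47 ± 0.11, limma adjusted p = 0.126). Its correlation with the hepatocyte marker mean was 0.19 over the WT and -0.35 over the Bmal1-/- slice libraries.

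Pklr encodes the pyruvate kinase of liver and red cells (ENSMUSG00000041237, chromosome 3, 89136142 to 89146784). WT slices held 3.18 FPKM at the lowest (CT69), 15.2 at the median and 38.3 at the highest (CT24). Bmal1-/- slices held 1.67 FPKM at the lowest (CT63), 5.14 at the median and 22.3 at the highest (CT09). Bmal1-/- exceeded WT only at CT09. Of all genes, 54.2% were below WT at 19 or more of the 24 times. That share is for a looser limit than the Pklr count, at which no share was worked out. The mean was 15.7 ± 7.78 FPKM (SD, n = 24) in WT and 5.95 ± 3.99 in Bmal1-/-. Pklr was lower by a log2 difference of -1.26 ± 0.17 (SE; limma adjusted p = 1.53e-08), where 4.05% of all genes were called lower. The Pklr call was kept in every fit that left out 1 time point, with values from -1.35 to -1.19.

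Gys2 encodes the glycogen synthase of liver (ENSMUSG00000030244, chromosome 6, 142422613 to 142473109, minus strand). Its slice level was 7.21 FPKM at the lowest, 16.1 at the median and 53.2 at the highest in WT, and 2.55, 8.63 and 38.0 FPKM in Bmal1-/-. Of the 24 Bmal1-/- values, 10 lay under the lowest WT value, and Bmal1-/- was below WT at 19 of 24 times, which 54.2% of all genes were. The difference was -0.99 ± 0.23 (SE; limma adjusted p = 0.000159), just inside the size limit, so Gys2 was not called. It was called with a pseudocount of 0.1 (-1.09), without the 6 least correlated libraries (-1.12) and in fits that left out any of 10 single time points. Of the 8 members tested, 1 was called higher and 1 lower, and the median of the 8 differences was 0.11 against -0.34 for all 14566 genes.

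**Figure D2:**
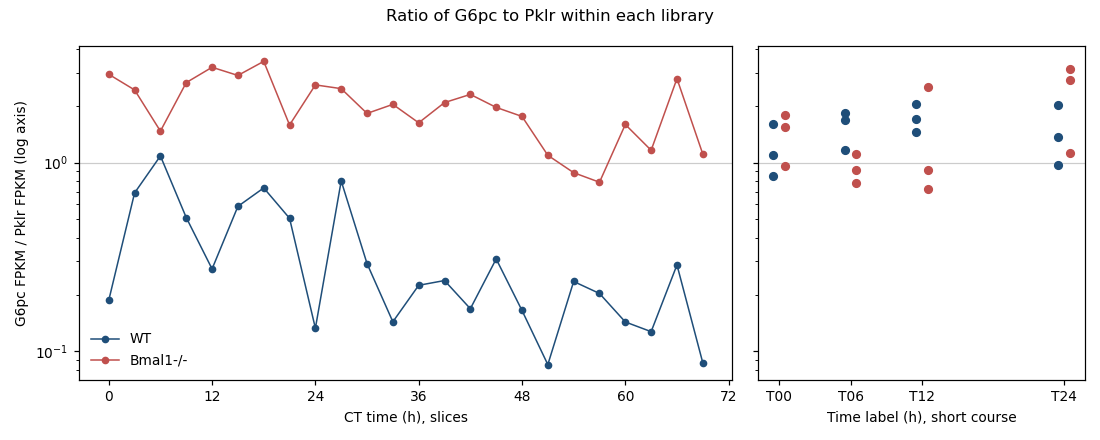
Ratio of G6pc FPKM to Pklr FPKM within each library (log axis) against time in hours, for slices with 1 point per time and for the short course with 1 point per replicate. The Bmal1-/- line lies above the WT line throughout the slices, from 0.787 to 3.44 against 0.0851 to 1.08, and the short course points of both genotypes overlap.

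A ratio of 2 genes in 1 library does not change with the scaling of that library. The ratio of G6pc to Pklr in slices was 0.0851 at the lowest, 0.236 at the median and 1.08 at the highest in WT, and 0.787, 2.00 and 3.44 in Bmal1-/-. It was higher in Bmal1-/- at 24 of 24 times, and 22 of the 24 Bmal1-/- ratios lay above the highest WT ratio. Within each of the 3 days, all 8 Bmal1-/- ratios lay above all 8 WT ratios. The ratio of Pck1 to Pklr was higher in Bmal1-/- at 23 of 24 times, with medians of 0.868 and 2.64. Both pairs were taken up with the levels known, so these counts describe the libraries and carry no test.

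Cell type markers moved with genotype in the slices. All 12 hepatocyte markers had positive differences and 4 were called higher in Bmal1-/- (median 0.57; 0.60 without Alb), with sums from 1770 to 36548 FPKM in WT and from 3490 to 135190 in Bmal1-/-. All 10 macrophage and Kupffer cell markers were called lower (median -2.22), with sums from 213 to 5694 FPKM in WT and from 72.9 to 520 in Bmal1-/-, and none was at 0 in all libraries. Of 9 fibroblast and stellate cell markers, 5 were called lower. In bulk tissue, fewer cells of a type and less RNA per cell cannot be told apart. With every library rescaled to 11 hepatocyte markers (Alb left out for its values of 0), the median of all genes moved to -0.99. On that scale the G6pc call was lost: its difference of 0.46 ± 0.14 (SE; limma adjusted p = 0.00204) was under the size limit. Pcx was called instead, at -1.21 ± 0.18 (SE; limma adjusted p = 2.68e-07). Of all genes, 7504 were called on that scale, against 762 on the deposited scale. Pklr was lower by a log2 difference of -1.99 and Gys2 by one of -1.77. The estimates of Pck1 (-0.66), Fbp1 (-0.72), Slc37a4 (-0.59) and Slc2a2 (-0.43) turned negative, all above the median of all genes. The part of the macrophage and stellate cell markers in these results was not tested.

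The shift of all genes also bears on size. Rescaling by median-of-ratios factors moved the median of all genes from -0.34 to about 0 and the share of calls that were higher from 22.6% to 59.0%. Relative to that centre G6pc was higher by 1.46, Slc2a2 by 0.63 (limma adjusted p = 0.014) and Slc37a4 by 0.55 (limma adjusted p = 0.00141), and the last 2 stayed under the size limit. Pklr was at -0.91 (limma adjusted p = 2.79e-05) and Gys2 at -0.63 (limma adjusted p = 0.0214), both under the size limit. Directions of G6pc, Pklr, Gys2 and Pcx were the same under the 3 scalings, and those of Pck1, Fbp1, Slc37a4 and Slc2a2 were not.

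**Figure D3:**
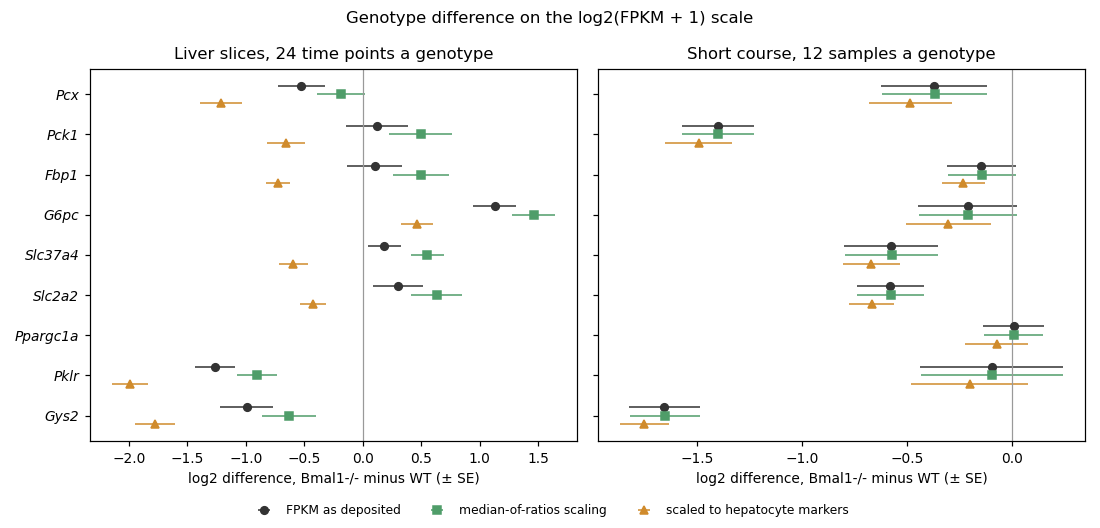
Difference between genotypes (Bmal1-/- minus WT, log2(FPKM + 1) scale, bars are the SE) of each member in slices and in the short course, under 3 scalings; Ppargc1a was not tested in slices. G6pc is right of 0 and Pklr and Gys2 are left of 0 under each scaling in slices, and in the short course the scalings lie close together.

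**Figure D4:**
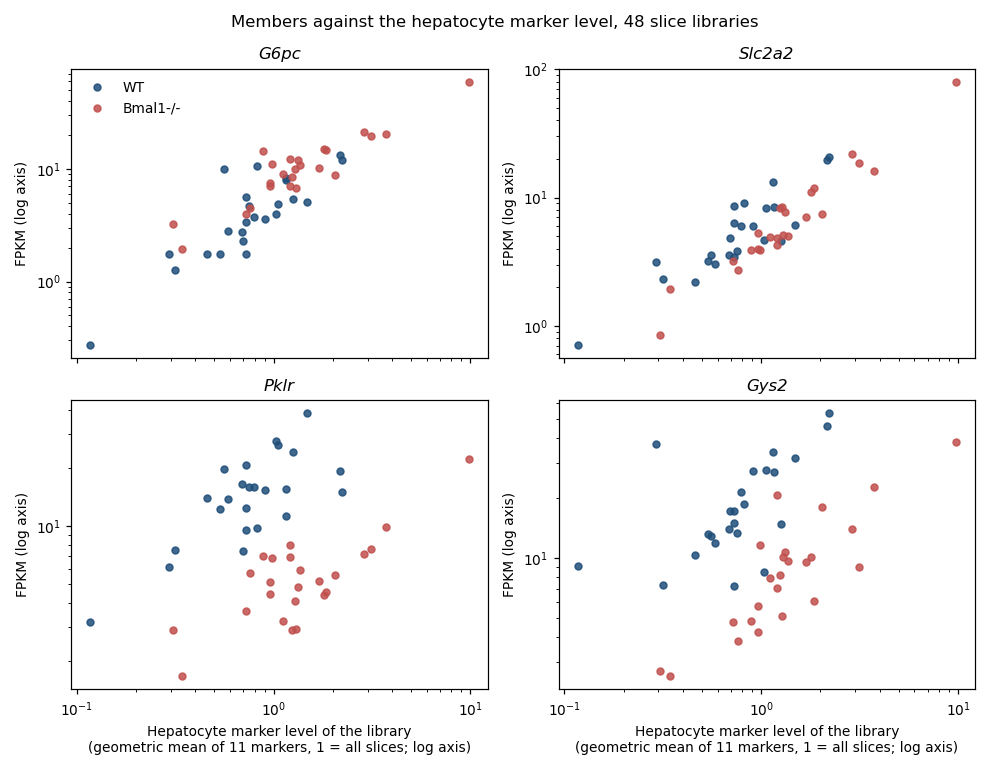
FPKM of G6pc, Slc2a2, Pklr and Gys2 (log axis) against the hepatocyte marker level of each of the 48 slice libraries (log axis, relative to the mean of all slices), with WT and Bmal1-/- as separate colours. G6pc and Slc2a2 climb with the marker level in both genotypes, and at like marker levels the Bmal1-/- points of Pklr and Gys2 lie below most WT points.

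Within a genotype, 8 of the 9 members, all but Ppargc1a, had a positive correlation with the hepatocyte marker mean in both courses. Pearson r over 24 libraries ran from 0.41 (Pcx in Bmal1-/-) to 0.96 (Slc2a2 in Bmal1-/-) in the slices, and from 0.71 (G6pc in WT) to 0.98 (Gys2 in WT) over the 12 libraries of a genotype in the short course for these 8 members. Ppargc1a had an r of 0.43 in WT and 0.72 in Bmal1-/- in the short course, and of 0.19 and -0.35 in the slices. Among the 36 pairs of members, r ran from -0.43 (Ppargc1a and Pklr) to 0.88 (Slc2a2 and Slc37a4) in slices with a median of 0.47, and from 0.47 to 0.97 in the short course with a median of 0.84. All genes of a library share its tissue content and scaling, so these coefficients are a description.

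No member was called rhythmic with a 24 h period in either genotype. Of the 8 members tested, 0 passed in WT (1.98% of 14631 genes passed), 0 in Bmal1-/- (11.2% of 14224 genes) and 0 in the test of the difference of rhythms (4.13% of 14566 genes). At an unadjusted limma p under 0.05, 2 members passed in WT and 0 in each of the other 2 tests. No share of all genes is given at that limit, so these 2 are only named. The 2 members were Pcx, with an amplitude of 0.55 ± 0.20 (SE) and a peak near 5.61 h (limma adjusted p = 0.24), and Slc37a4, with 0.24 ± 0.08 and a peak near 3.64 h (limma adjusted p = 0.215). In Bmal1-/- the lowest limma adjusted p was that of Pklr (0.278, amplitude 0.35). G6pc had amplitudes of 0.23 in WT and 0.14 in Bmal1-/-, both within 2 SE of 0. With day as a factor in place of a linear trend, Slc37a4 alone passed in WT (amplitude 0.31, limma adjusted p = 0.0443). Of all genes, 1931 passed in WT in that fit, against 289 with the linear trend. Arntl itself did not pass in WT (limma adjusted p = 0.139). The number of rhythmic genes in WT ranged from 0 to 1041 when single time points were left out, and in Bmal1-/- from 63 to 2209. Most of the Bmal1-/- genes no longer passed without CT27 and CT42, the libraries with adipocyte mRNA.

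The export genes G6pc and Slc2a2 declined over the culture in both genotypes. The G6pc level fell from day 1 to day 3 by 1.55 ± 0.33 (SE; limma adjusted p = 0.00161) in WT and by 1.17 ± 0.33 (limma adjusted p = 0.0185) in Bmal1-/-. Slc2a2 fell by 1.32 ± 0.40 (limma adjusted p = 0.024) in WT, where its day medians went from 8.56 to 3.17 FPKM, and by 1.57 ± 0.40 (limma adjusted p = 0.0105) in Bmal1-/-, where they went from 9.75 to 3.73 FPKM. The background was 1.15% of genes called lower and 0.941% called higher in WT, and 1.43% lower and 0.151% higher in Bmal1-/-. Slc37a4 had a change of -0.97 ± 0.25 in Bmal1-/- (limma adjusted p = 0.0126), just inside the size limit, and one of -0.40 in WT (limma adjusted p = 0.317). Pck1 had changes of -1.02 in WT (limma adjusted p = 0.141) and -0.67 in Bmal1-/-, and Pklr of -0.34 and -0.32, and neither gene passed. Pcx was the member with positive estimates, of 0.27 and 0.19. No member passed the test of a difference between the genotypes' changes, for which 0.0137% of genes passed with a higher and 0.0275% with a lower change in Bmal1-/-. At an unadjusted limma p under 0.05 the count of members was 0 as well, and no share of all genes is given at that limit.

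Hepatocyte markers fell over the same days. In WT 7 of 12 were called lower (median -1.28) and in Bmal1-/- 4 of 12 (median -1.27), while 9 of 10 macrophage and Kupffer cell markers rose in WT and 1 of 10 in Bmal1-/-. Scaled to hepatocyte markers, which moved the median of all genes to 0.92 in WT and 0.89 in Bmal1-/-, 1 member was called in each genotype rather than 2. On that scale 5771 of all genes were called in WT and 5368 in Bmal1-/-. The share of the decline that follows the markers was not tested. The Bmal1-/- call of G6pc was lost without CT00, CT09 (-0.88, limma adjusted p = 0.0589) or CT63, and the WT call of Slc2a2 without CT03, CT15, CT18 or CT69.

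Pck1 and Gys2 had the most negative differences between genotypes among the members of the short course. Calls there needed only an adjusted p under 0.05, with no size limit, so they cannot be set against the slice calls; Gys2 had a negative difference in both courses. Pck1 (ENSMUSG00000027513, chromosome 2, 173153048 to 173159273) measured 842, 873 and 756 FPKM in the 3 WT replicates at T00, and 326, 305 and 334 FPKM in the Bmal1-/- replicates. At T06 the WT values were 324, 237 and 395 FPKM and the Bmal1-/- values 163, 142 and 167. At T12 they were 265, 223 and 160 FPKM in WT and 87.8, 48.0 and 155 in Bmal1-/-. At T24 WT held 96.9, 57.8 and 116 FPKM and Bmal1-/- 30.4, 13.5 and 22.5. The groups did not overlap at any of the 4 times, though at T12 the highest Bmal1-/- value came close to the lowest WT value. Pck1 was lower in Bmal1-/- by a log2 difference of -1.40 ± 0.17 (SE, 12 samples a genotype; limma adjusted p = 1.32e-05).

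Gys2 was the other member whose groups stayed apart throughout. At T00 it measured 226, 410 and 306 FPKM in WT and 79.2, 68.8 and 72.5 in Bmal1-/-. At T06 the values were 67.6, 100 and 118 FPKM in WT and 32.6, 36.5 and 44.5 in Bmal1-/-. At T12 they were 58.8, 122 and 87.7 FPKM in WT and 45.6, 16.9 and 23.7 in Bmal1-/-. At T24 WT held 31.1, 29.5 and 32.997 FPKM and Bmal1-/- 14.05, 5.80 and 9.72. The Gys2 difference was -1.66 ± 0.17 (SE; limma adjusted p = 1.37e-06). Groups that lay apart in this way at each of the 4 times were met by 1.2% of the 12547 genes tested, and by 2 of the 9 members. At T00 alone, 4 of the 9 members (Pck1, Gys2, Slc2a2 and Slc37a4) had all Bmal1-/- values below all WT values, against 16.8% of all genes.

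Slc2a2 measured 144, 213 and 185 FPKM in WT and 107, 106 and 109 in Bmal1-/- at T00, and 22.03, 29.0 and 36.9 against 17.8, 8.85 and 21.5 at T24. Its groups overlapped at T06 and T12, and its difference was -0.58 ± 0.16 (SE; limma adjusted p = 0.0169). The Slc2a2 call was lost without WT replicate 2 (limma adjusted p = 0.123) or WT replicate 3 (limma adjusted p = 0.0962) and with 1 mean per genotype and number (limma adjusted p = 0.161). Slc37a4 had a difference of -0.57 ± 0.22 (limma adjusted p = 0.0816), and it passed when scaled to hepatocyte markers (-0.67, limma adjusted p = 0.00199). Together 3 of 9 members were called lower and 0 higher, where 11% of all genes were called lower and 7.75% higher. Markers differed by genotype here too: 5 of 10 macrophage and Kupffer cell markers were called lower (median -0.32), with sums from 152 to 420 FPKM in WT and from 128 to 340 in Bmal1-/-. Of 6 endothelial markers 2 were called lower, and of 11 hepatocyte markers without Alb 3 were called higher and 2 lower (median 0.20). Their part in these differences was not tested.

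G6pc and Pklr, the genes that set the genotypes apart in slices, did not pass in the short course. G6pc measured 168, 171 and 73.6 FPKM in WT and 194, 226 and 171 in Bmal1-/- at T00, and the difference over the 4 times was -0.21 ± 0.24 (SE; limma adjusted p = 0.571). Pklr measured 105, 156 and 86.8 FPKM in WT and 126, 126 and 177 in Bmal1-/- at T00, with a difference of -0.10 ± 0.34 (limma adjusted p = 0.877). The ratio of G6pc to Pklr overlapped, from 0.847 to 2.03 in WT and from 0.721 to 3.15 in Bmal1-/-. The ratio of Pck1 to Pklr at T00 lay the other way from the slices, from 5.59 to 8.71 in WT and from 1.88 to 2.59 in Bmal1-/-. At T06, T12 and T24 the Pck1 to Pklr ratios of the 2 genotypes overlapped, and over all times they ran from 2.12 to 8.71 in WT and from 0.887 to 4.51 in Bmal1-/-. The slice and short tables were normalised separately, and the difference between the 2 courses was not tested. Fbp1 (-0.14), Pcx (-0.37) and Ppargc1a (0.01) did not pass either.

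**Figure D5:**
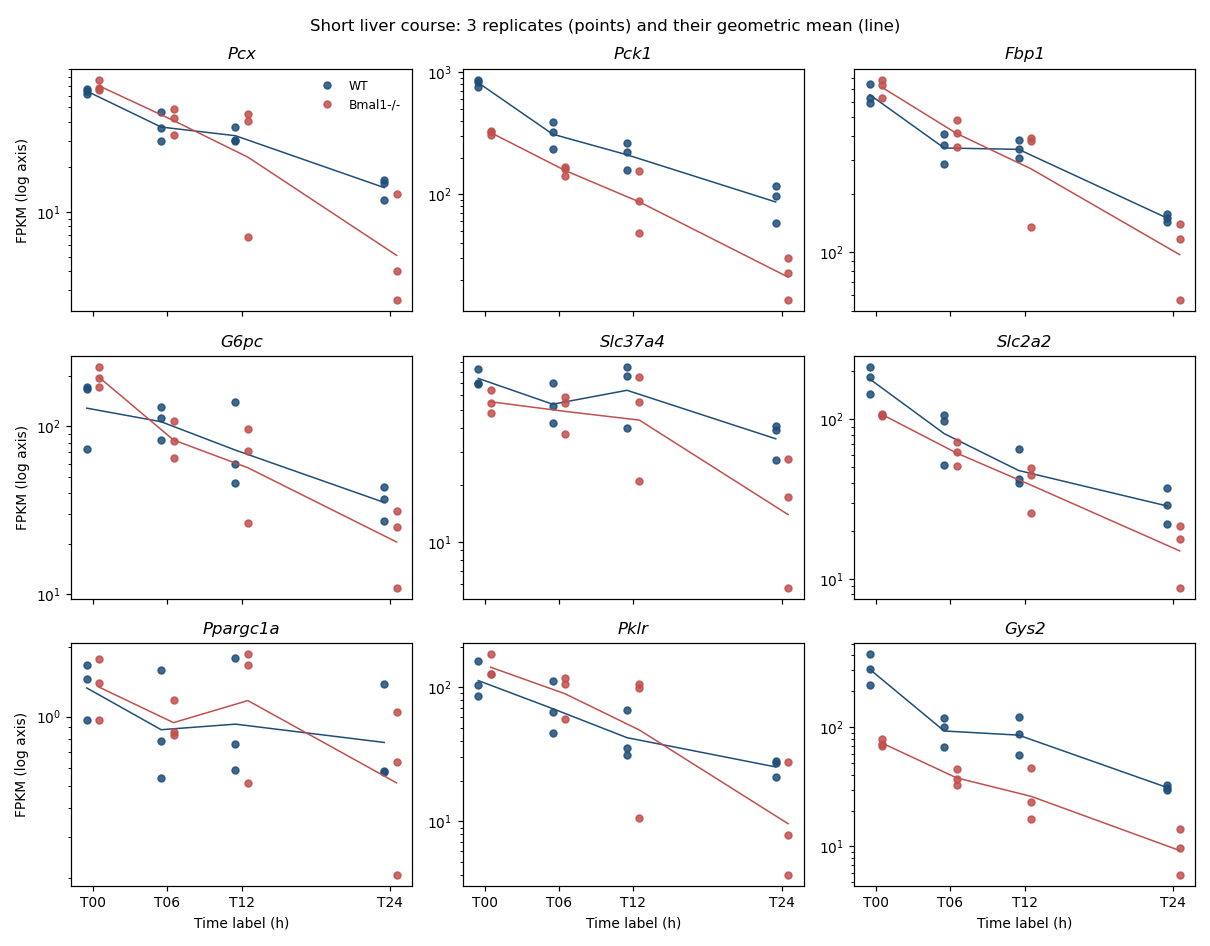
FPKM (log axis) of the 9 members in the short liver course against the time label in hours, with 1 point per replicate and lines through the geometric means. Pck1 and Gys2 of Bmal1-/- lie below WT at each of the 4 times. In Bmal1-/- 8 of the 9 members pass the test over time, which has no direction, each with a lower estimate at T24 than at T00.

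Most members fell over the 24 h of the short course. In WT 6 of 9 passed the test over time (64.4% of all genes passed): Pck1, with a T24 minus T00 change of -3.23 ± 0.35 (SE), Gys2 (-3.25 ± 0.34), Slc2a2 (-2.60 ± 0.32), Fbp1 (-2.11 ± 0.33), Pcx (-2.07 ± 0.50) and G6pc (-1.83 ± 0.47). Pklr (-2.10 ± 0.68, limma adjusted p = 0.0541), Slc37a4 (-1.04 ± 0.45, limma adjusted p = 0.184) and Ppargc1a (-0.37 ± 0.29, limma adjusted p = 0.651) did not pass. In Bmal1-/- 8 of 9 passed (72.2% of all genes): Pck1 (-3.87), Pklr (-3.71), Pcx (-3.49), G6pc (-3.19), Fbp1 (-2.86), Gys2 (-2.85), Slc2a2 (-2.75) and Slc37a4 (-1.89). The median member change was -2.10 in WT and -2.86 in Bmal1-/-, where the median over all genes was near 0. In levels, Fbp1 went from 655 ± 79.3 to 150 ± 7.43 FPKM (SD, n = 3) in WT and from 714 ± 77.3 to 104 ± 42.9 FPKM in Bmal1-/-.

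By T06 the estimated change from T00 in WT was -1.40 ± 0.35 (SE) for Pck1, -1.70 ± 0.34 for Gys2 and -0.27 ± 0.47 for G6pc, and single steps were not tested. In Bmal1-/- the 6 h changes were -1.03 ± 0.35 for Pck1, -0.95 ± 0.34 for Gys2 and -1.23 ± 0.47 for G6pc. No member passed the test of a difference between the genotypes' time courses (0 of 9, against 1.75% of all genes), and 0 at an unadjusted limma p under 0.05. No share of all genes is given at that unadjusted limit. The lowest limma adjusted p was that of Pcx (0.477). Markers moved with time as well: with Alb left out for its listed values of 0, 11 of 11 hepatocyte markers passed with negative changes in each genotype (medians -1.79 in WT and -2.03 in Bmal1-/-), and 5 of 5 biliary markers passed in each genotype, with median changes of 1.82 and 3.06. Scaled to hepatocyte markers, which moved the median of all genes to 1.37 in WT and 1.59 in Bmal1-/-, 4 members passed in WT and 6 in Bmal1-/-. Over the alternative settings, 8091 to 9301 of all genes passed in WT and 9088 to 11269 in Bmal1-/-. These compare with 8081 and 9062 on the deposited scale. In WT the calls of G6pc, Fbp1 and Pcx were lost and Slc37a4 passed with a positive change (0.73, limma adjusted p = 0.0432), and in Bmal1-/- those of G6pc and Slc37a4 were lost. The WT call of G6pc was lost without WT replicate 1, and that of Pcx without any of the 3 WT replicates.

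The order of levels differed between the courses. In WT slices the medians ran Fbp1 (59.0 FPKM), Gys2 (16.1), Pklr (15.2), Pck1 (14.3), Slc37a4 (10.5), Pcx (8.11), Slc2a2 (4.77), G6pc (3.85) and Ppargc1a (0.228), and the ranges of all neighbours overlapped. In the short course at T00 WT means ran Pck1 (824 ± 60.7 FPKM, SD, n = 3), Fbp1 (655 ± 79.3), Gys2 (314 ± 92.3), Slc2a2 (181 ± 34.8), G6pc (138 ± 55.5), Pklr (116 ± 36), Slc37a4 (74.0 ± 7.96), Pcx (64.3 ± 2.28) and Ppargc1a (1.36 ± 0.37). Slc2a2, G6pc and Pklr did not differ beyond their spread there. FPKM is per length of transcript, but the 2 tables were scaled separately.

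Around the members, 3 lists of 74 genes in all were read the same way. Of 32 shared glycolytic and gluconeogenic enzymes, 3 were called lower and 0 higher in Bmal1-/- slices, where 4.05% of all genes were called lower and 1.18% higher. Their median difference was -0.46, that of all genes -0.34. The 3 were Eno1 (enolase, -1.16), Ldha (lactate dehydrogenase, -1.01) and Tkfc (triokinase of fructose breakdown, -1.57). Of 27 tested hormone signalling genes and regulators, 5 were called lower and 0 higher, and their median of -0.35 was close to that of all genes. Among them, Mlxipl, which encodes the glucose-sensing activator of Pklr, ChREBP, had a difference of -1.26 ± 0.20 (SE; limma adjusted p = 3.46e-07), and its median was 49.1 FPKM in WT and 15.6 in Bmal1-/-. Hnf4a, a master factor of hepatocyte genes, was at -1.27 and Creb3l3, a fasting-induced factor of the CREB family, at -1.90. Of 13 tested glycogen genes, 1 was called in slices: Ppp1r3c, which brings protein phosphatase to glycogen and activates its synthesis, was higher in Bmal1-/- by 1.29 ± 0.12 (limma adjusted p = 3.98e-12) and higher at 24 of 24 times, with medians of 0.593 FPKM in WT and 2.92 in Bmal1-/-. Of all genes, 2.54% lay above WT at 20 or more times. The WT mean of Ppp1r3c was under the 1 FPKM needed to enter a test. It entered through its Bmal1-/- values, so its difference and count are a description. Mlxipl, Hnf4a, Eno1 and Ldha were under the size limit with median-of-ratios scaling and kept their sign, as Ppp1r3c did when scaled to hepatocyte markers.

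In the short course, 12 of 32 enzymes passed the genotype test, 11 of them lower (against 11% of all genes lower and 7.75% higher), with Gpd1 (glycerol 3-phosphate dehydrogenase) at -1.10, Gpi1 (phosphoglucose isomerase) at -0.63 and Ldha at -0.59. Of 27 regulators, 13 passed, 12 of them lower, with Creb3l3 at -1.58, Cebpb at -0.89 and Foxo3 at -0.39. Of 13 glycogen genes, 3 passed: Ppp1r3c (1.18) and the glycogenin gene Gyg (0.35) were higher and the phosphorylase kinase subunit gene Phkg2 (-0.25) was lower. Gyg (limma adjusted p = 0.394) and Phkg2 (limma adjusted p = 0.0847) did not pass when scaled to hepatocyte markers. At T00 Ppp1r3c had a mean of 5.17 ± 2.96 FPKM (SD, n = 3) in WT and 42.8 ± 18.7 in Bmal1-/-, and the groups did not overlap. The ratio of Pygl, the glycogen phosphorylase of liver, to Gys2 was above all WT values in every Bmal1-/- replicate at each of the 4 times, from 0.565 to 0.823 in WT and from 3.01 to 3.86 in Bmal1-/- at T00. Pygl alone did not pass by genotype (-0.09, limma adjusted p = 0.839), so this ratio largely restates the Gys2 difference. The pair was chosen after the data had been seen and carries no test.

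Over time in the short course, Pdk4, a kinase that shuts pyruvate dehydrogenase, rose by 4.21 and Trib3, a pseudokinase of stress and insulin signalling, by 2.56 in WT, while Sds (serine dehydratase, -2.48), Klf15 (a glucocorticoid-induced factor of amino acid breakdown, -2.78) and Cebpa (-2.36) fell. In Bmal1-/- Trib3 rose by 4.44 and Ppp1r3b (-4.17), Creb3l3 (-3.53) and Sds (-3.18) fell. In all, 2 regulators passed the test of a difference in time course, Crtc2, a coactivator of CREB (-0.95, limma adjusted p = 0.0193), and Creb3l3 (-2.09, limma adjusted p = 0.0483), with the more negative change in Bmal1-/-, against 1.75% of all genes. Neither passed when scaled to hepatocyte markers (limma adjusted p = 0.839 for Crtc2 and 0.0555 for Creb3l3), nor did Sds and Cebpa over time in WT. In the slices, 3 of 27 regulators, 0 of 32 enzymes and 0 of 12 glycogen genes passed the rhythm test in WT, where 1.98% of all genes did. In Bmal1-/- 4 of 27 regulators, 1 of 32 enzymes and 2 of 13 glycogen genes (Phka2 and Phkb, of phosphorylase kinase) passed, against 11.2% of all genes. Most of the genes that passed in Bmal1-/- no longer did so without CT27 and CT42, the libraries with adipocyte mRNA. With hepatocyte marker scaling 0 of all genes passed there. From day 1 to day 3 Mlxipl fell by 1.31 in WT and Igfbp1, a gene repressed by insulin, rose by 1.45 in Bmal1-/-, and no other gene of the 3 lists was called.

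The genes most like Pck1, G6pc and Pklr in pattern were named by their correlation. Over the 48 slice libraries and 9575 genes whose mean reached 5 FPKM, Pearson r was highest for Pck1 with Car3 (0.935), Inmt (0.93) and Nudt7 (0.89), for G6pc with Rdh16f2 (0.939), Cyp2e1 (0.935) and Mup21 (0.932), and for Pklr with Tkfc (0.937), Grhpr (0.937) and Akr7a5 (0.934). Over the 24 short course libraries and 7254 genes it was highest for Pck1 with Hes6 (0.974), Gsdmd (0.972) and Fads2 (0.971), for G6pc with Fmo1 (0.949), Gpat4 (0.945) and Sult2a8 (0.944), and for Pklr with A1cf (0.978), Pygl (0.975) and Cyb5r3 (0.974). No gene stood among the 3 nearest of a member in both courses. These libraries share tissue content and the change over time, and r is a description with no test.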

How the data were processed

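Liver slices and a short liver course of both genotypes were analysed from 2 tables of FPKM per gene that the authors deposited. Per the submitters' processing notes, TopHat2 2.1.0 and Cuffdiff were used with GRCm38, in an order not given in the sources used here. Runs of 1 sample share a column, and the second run of Bmal1-/- replicate 3 at T00, whose time tag conflicts with its title, was kept at T00. Differences were tested with limma 3.58.1 (R 4.3.3) with a variance trend on log2(FPKM + 1), keeping genes whose mean reached 1 FPKM, with Benjamini-Hochberg adjustment over all genes tested. Slice fits held a 24 h wave and a trend or day means, and short course fits held genotype by time means. Calls needed an adjusted p below 0.05, and for slice levels and day changes also a log2 difference of at least 1. A gene ID without a symbol (414 in each table) stayed in the fits. The members and the gene lists were chosen with earlier results of these data known. Named genes were the members, Arntl, up to 3 called genes of each list by smallest p, and the 3 genes most like Pck1, G6pc and Pklr. The carbohydrate response motif and the ratios were chosen after the data had been seen. Alternatives changed the pseudocount, filter, scaling, trend, blocks and libraries. The fits were tested on simulated data.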

Additional observations from a re-analysis of the deposited data

Results flagged for a closer look

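The time course of Arntl in the short course differed between the genotypes: the change from T00 to T24 in Bmal1-/- minus that in WT was -1.85 ± 0.22 (SE; limma adjusted p = 0.000806). Arntl went from 0.301 ± 0.151 FPKM (SD, n = 3) at T00 to 2.76 ± 0.37 at T24 in WT and from 2.92 ± 0.34 to 2.15 ± 0.42 in Bmal1-/-, and all 3 WT values at T24 lay above all 3 at T00.

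Single slice libraries stood far from the other 7 of their day and genotype for several members by Dixon's ratio, in 10 of the 54 groups of 8 values examined, and chance gives about 1 in 20 independent groups. The members were read in the same libraries and correlate, so these groups are not independent and the count carries no test. Bmal1-/- CT09 was high on day 1 for Pck1 (116 FPKM), Fbp1 (329 FPKM), Pcx (13.97 FPKM), Pklr (22.3 FPKM) and Slc37a4 (77.2 FPKM). Its hepatocyte marker sum was the highest of the slices, and its part in these values was not tested. Bmal1-/- CT27, a library with adipocyte mRNA, was high for Pcx (29.6 FPKM). WT CT69 was low for G6pc (0.276 FPKM) and Fbp1 (10.5 FPKM), WT CT42 was low for Fbp1 (24.4 FPKM), and WT CT27 was high for Slc2a2 (20.8 FPKM).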

How the results depend on the processing

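The number of members called moved as follows, and the causes were not tested. In the slice genotype test 2 members were called, 1 with median-of-ratios scaling and 3 with a pseudocount of 0.1, with hepatocyte marker scaling or without Bmal1-/- CT27 and CT42, the last an alternative chosen after seeing the data (2 to 3 with single times left out). The hepatocyte marker count exchanges G6pc (0.46) for Pcx (-1.21) and Gys2 (-1.77), and the count of 2 without the 6 least correlated libraries exchanges G6pc (0.96) for Gys2 (-1.12). In the WT rhythm test 0 were called and 1 with day as a factor, where 1931 of all genes passed. For the day changes 2 members were called in each genotype, 1 in each with hepatocyte marker scaling and 1 in Bmal1-/- without the 6 least correlated libraries, and leaving out single times gave 1 to 2 in WT and 1 to 3 in Bmal1-/-. Over all genes, leaving out single times gave 213 to 385 in WT and 141 to 283 in Bmal1-/-. Leaving out single replicates gave 2 to 4 members in the short genotype test (3 as reported), 4 to 8 in the WT time test (6) and 8 throughout in Bmal1-/-. Over all genes the same fits gave 1261 to 2316, 5799 to 8521 and 7537 to 9010 in that order. With hepatocyte marker scaling, 4 members were called in the short genotype test, 4 over time in WT and 6 over time in Bmal1-/-. The 1 mean per genotype and number left 2 members in the short genotype test. With the replicate block, 3 members were called by genotype, 6 by time in WT, 8 by time in Bmal1-/- and 0 by interaction, as without it, and the replicate block changed no call of a single member. Deviations of same-numbered samples of the 2 genotypes had a median correlation of -0.00856 (lowest -0.113), so the numbers were not taken as pairs.

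Estimates changed sign as follows. With hepatocyte marker scaling the slice genotype differences of Pck1 (-0.66), Fbp1 (-0.72), Slc2a2 (-0.43) and Slc37a4 (-0.59) turned negative. On that scale the WT day changes of Fbp1 (0.56), Pklr (0.62), Slc37a4 (0.57) and Gys2 (0.35) and the Bmal1-/- day changes of Pck1 (0.42), Fbp1 (0.81), Pklr (0.64), Slc37a4 (0.12) and Gys2 (0.63) turned positive. In the short course it gave Ppargc1a a genotype difference of -0.071 and time changes of 0.51 in WT and 0.34 in Bmal1-/-, Slc37a4 time changes of 0.73 and 0.12, Phkg2 a WT time change of 0.47 and Slc2a2 a difference of time courses of 0.12. Without the 6 least correlated libraries, Pck1 (-0.22) and Fbp1 (-0.18) changed sign by genotype, Pklr (0.0028) by WT day change, Fbp1 (0.017) by Bmal1-/- day change, and Pklr (-0.085) and Slc2a2 (0.034) by the difference of day changes. The last was -0.0037 for Pklr with a pseudocount of 0.1 and -0.0022 with median-of-ratios scaling. A pseudocount of 0.1 gave Ppargc1a a short genotype difference of -0.014.

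With single slice times left out, the genotype difference ran from -0.024 to 0.22 for Pck1 and from -0.031 to 0.19 for Fbp1, and the Bmal1-/- day change of Fbp1 from -0.55 to 0.019. The difference of day changes ran from -0.099 to 0.53 for Fbp1, from -0.27 to 0.15 for Pcx, from -0.17 to 0.28 for Pklr, from -0.44 to 0.18 for Slc2a2 and from -0.032 to 0.51 for Gys2. With single replicates left out, the short genotype difference ran from -0.43 to 0.031 for G6pc, from -0.27 to 0.098 for Fbp1, from -0.088 to 0.14 for Ppargc1a and from -0.30 to 0.30 for Pklr, and the difference of time courses from -0.50 to 0.13 for Ppargc1a and from -0.38 to 0.19 for Slc2a2.

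Counts over all genes depended more on the settings. The slice genotype count of 762 was 1397 with a pseudocount of 0.1 and 7504 with hepatocyte marker scaling. The rhythm counts (289 in WT, 1594 in Bmal1-/- and 602 for the difference) ranged from 0 to 1931, from 0 to 2388 and from 0 to 1652, and that in Bmal1-/- was 6 without CT27 and CT42. Day change counts ranged from 184 to 5771 in WT (305) and from 165 to 5368 in Bmal1-/- (230), and from 0 to 26 for their difference (6). The short genotype count of 2350 was 1356 with hepatocyte marker scaling, with 20.2% higher rather than 41.4%, and 560 with 1 mean per genotype and number. The interaction count of 220 ranged from 37 to 368, and from 23 to 429 with single replicates left out. Without read counts the depth behind low values such as those of Ppargc1a is unknown.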
